A study of Rattus norvegicus with 6 samples.

Results

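Rat chromosomes 12 and 19 were cut in silico into 28695 EcoRI fragments, out of 759990 fragments on all chromosomes other than 13, and these fragments were examined for contact with a proximal promoter on chromosome 13. All fragments that the deposited tables place on either chromosome (build rn5) were taken, 12485 on chromosome 12 and 16210 on chromosome 19, and no measured value entered the choice. The libraries were 4C-seq libraries from cultured rat cardiac endothelial cells, 3 from the consomic strain SS-13BN/Mcwi (SS13BN) and 3 from SS/JrHsdMcwi (SS). SS13BN rats carry chromosome 13 of the Brown Norway strain in an SS background, so that chromosomes 12 and 19 are of SS origin in both strains and the viewpoint chromosome is what differs. Both strains were handled alike according to the labels: passage 2 cells, male and female pooled, were fixed in 2% formaldehyde for 10 min, with no other treatment listed. Whether replicate libraries stem from separate cultures or animals is not stated in the labels. The p-values of tests across libraries therefore measure only the spread between libraries, which may be technical. Those of the binomial window calls measure only counting within a single library.

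In 4C, chromatin is crosslinked, cut with a restriction enzyme and religated, and the fragments joined to 1 chosen fragment, the viewpoint, are amplified and sequenced. Chromosomes occupy separate territories in the nucleus, and contacts of a viewpoint with other chromosomes are sparse. Such contacts are known from other mammalian cells to gather in broad, gene-rich domains of open chromatin and, for several loci, on small or gene-dense chromosomes. A fragment on chromosome 12 or 19 was therefore read here only as captured or not captured, a state recovered exactly from the deposited scores, and the domain scale was examined in windows of 500 kb.

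Both chromosomes were small by the fragment tables. Chromosome 12 was the shortest of the 20 chromosomes other than 13 and had the fewest fragments, with an end coordinate of 54450796. Chromosome 19 ended at 72914587 and ranked 3 in both measures, and chromosome 20, with 14596 fragments, lay between them. The median fragment was 2505 bp on chromosome 12 and 2368.5 bp on chromosome 19, which ranked 2 and 4 from the longest among the 20 chromosomes. Chromosome 19 held 1 fragment of 11.3 Mb, from 11891866 to 23208470, which made up 15.5% of its length, and the longest fragment of chromosome 12 spanned 2.34 Mb from 1494589 to 3838350. Neither of these was captured in any of the 6 libraries. Across libraries, 9.92%, 17.4% and 8.76% of all fragments outside chromosome 13 were captured in SS13BN and 12.3%, 9.99% and 11.9% in SS, so SS13BN 2 was the most complete library and SS13BN 3 the least.

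Counted per fragment, the promoter's contacts were more frequent on chromosome 19 than on the other chromosomes and than on chromosome 12. By that count chromosome 12 was captured about as often as the rest of the genome. On chromosome 19, 11.7% (95% Wilson interval 11.2 to 12.2), 19.3% (18.75 to 19.96) and 9.78% (9.34 to 10.3) of fragments were captured in SS13BN, and 13.7% (13.2 to 14.2), 11.9% (11.4 to 12.4) and 13.4% (12.9 to 13.9) in SS. On chromosome 12, 10.4% (9.90 to 10.98), 17.4% (16.7 to 18.1) and 8.48% (8.01 to 8.98) were captured in SS13BN, and 12.4% (11.86 to 13.01), 10.7% (10.2 to 11.3) and 11.3% (10.8 to 11.9) in SS. These intervals cover counting error only. On both chromosomes the libraries followed the order of their overall capture, the strains overlapped, and in each library chromosome 19 lay above chromosome 12.

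Divided by the share of the other chromosomes in the same library, capture of chromosome 19 was 1.19, 1.11 and 1.12 in SS13BN and 1.11, 1.199 and 1.13 in SS. The mean log2 ratio was 0.19 ± 0.05 (SD, n = 6), a 1.14-fold difference with the same sign in 6 of 6 libraries (exact two-sided sign-flip permutation test, p = 0.03125, the smallest that 6 libraries can give, 0.0391 after Benjamini-Hochberg adjustment over 5 tests). For chromosome 12 the ratio was 1.06, 0.9999 and 0.970 in SS13BN and 1.01, 1.08 and 0.952 in SS. Its mean log2 was 0.01 ± 0.07 with 3 libraries on either side of 0 (p = 0.625, adjusted p = 0.625, same exact test), a difference smaller than the spread between libraries. SS13BN 1 and SS 2 had the highest ratio on both chromosomes. The log2 difference of chromosome 12 minus chromosome 19 was -0.18 ± 0.04 and negative in all 6 libraries (adjusted p = 0.0391, exact sign-flip test). The 6 libraries share 1 genome and 1 digest, so this test speaks of the spread between libraries and not of how chromosomes vary. Among the 20 chromosomes, relative capture (a captured share over the library's overall share outside chromosome 13) ranked chromosome 19 at 4 with 1.14 ± 0.0376 and chromosome 12 at 11 with 1.01 ± 0.0478 (SD, n = 6). In single libraries the rank ran from 4 to 5 for chromosome 19 and from 7 to 15 for chromosome 12.

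The size and sign of the chromosome 19 excess, and the level of chromosome 12, depended on whether captures were counted per fragment or per base. Counted per Mb, chromosome 19 fell below the other chromosomes, at 0.923-fold (mean log2 -0.12, negative in 6 of 6 libraries). With fragments of 100 kb and over left out, an alternative chosen after seeing the data, it was 1.04-fold (log2 0.06, positive in 6 of 6 libraries). Chromosome 12 per Mb was below the other chromosomes, at 0.842-fold (0.793 to 0.900 in single libraries, negative on the log2 scale in 6 of 6). It was 0.843-fold without such fragments (log2 -0.25 in both). With the capture expected from fragment length, chromosome 19 kept a mean log2 of 0.16 and a rank of 4.

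**Figure D1:**
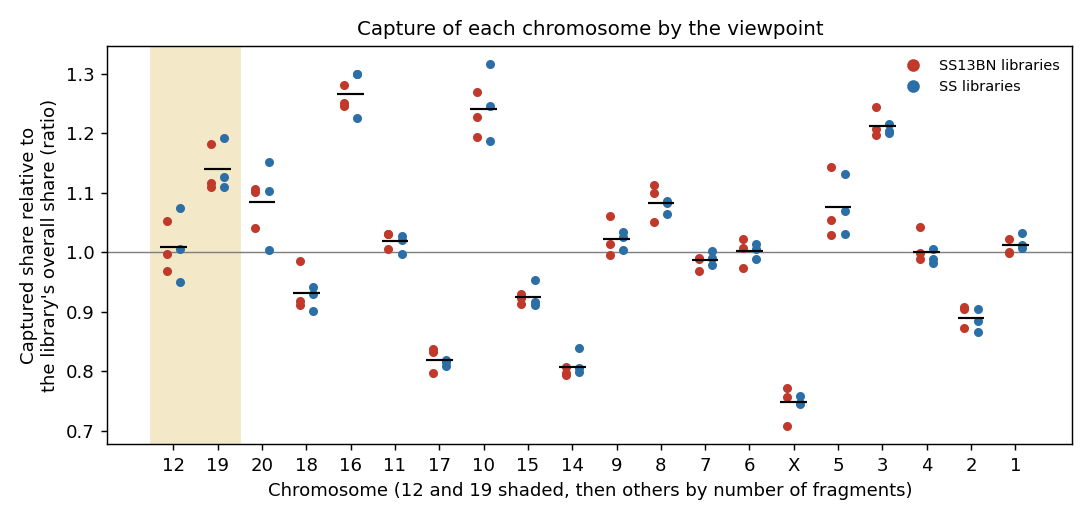
Relative capture (captured share of a chromosome over the library's overall share outside chromosome 13, y axis) of 20 chromosomes (x axis), 1 point per library with SS13BN in red left of SS in blue, and the mean of 6 libraries as a black bar. Chromosomes 12 and 19 stand shaded at the left, with means of 1.01 and 1.14 and the strains overlapping on both.

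No strain difference was detected in the totals of either chromosome. Captured fragments of chromosome 12 made up 12.1% ± 4.68 of its fragments in SS13BN and 11.5% ± 0.856 in SS (SD, n = 3 each), and those of chromosome 19 made up 13.6% ± 5.06 in SS13BN and 13.0002% ± 0.953 in SS. After scaling to the library totals, the log2 difference of SS13BN over SS was -0.01 (SE 0.04) on each chromosome, with a 95% half-width of 0.09 on chromosome 12 and 0.08 on chromosome 19 (limma, adjusted p = 0.949 for both). None of the 20 chromosomes passed in this fit at an adjusted p of 0.05 (0.0% called), nor at an unadjusted p of 0.05.

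Contacts were more frequent in the upper-coordinate part of both chromosomes. The fold lay further from 1 on chromosome 12 than on chromosome 19 in each of the 6 libraries, a difference that was not tested. Each chromosome was split by fragment number, without use of any value, at 25250008 on chromosome 12 and at 40013212 on chromosome 19. In the 6242 lower-coordinate fragments of chromosome 12, 8.07%, 13.2% and 7.18% were captured in SS13BN and 9.74%, 8.52% and 9.15% in SS. In its 6243 upper-coordinate fragments, 12.8%, 21.6% and 9.79% were captured in SS13BN and 15.1%, 12.96% and 13.5% in SS. Every library captured less of the lower-coordinate part than of its own upper-coordinate part, and SS13BN 3, the least complete library, showed the smallest gap.

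The fold of the lower-coordinate over the upper-coordinate part of chromosome 12 was 0.659 (0.612 to 0.733 in single libraries), a mean log2 of -0.60 ± 0.09 (SD, n = 6; exact sign-flip test, adjusted p = 0.0391). On chromosome 19 the lower-coordinate part was captured at 11.9% ± 3.01 and the upper-coordinate part at 14.7% ± 3.58 (8105 fragments each). The fold was 0.805 (0.742 to 0.862), a mean log2 of -0.31 ± 0.09 with all 6 libraries negative (adjusted p = 0.0391, same exact test). With the split at the middle base in place of the middle fragment, the contrast of chromosome 19 was smaller, at a fold of 0.886 (log2 -0.17, negative in all 6 libraries). By size of this contrast, whatever its sign, chromosome 12 ranked 2 and chromosome 19 ranked 7 among the 20 chromosomes. Agreement of all 6 libraries was not particular to them. The lower-coordinate part was also the less captured one in all 6 on chromosomes 1, 3, 5, 7, 8, 9, 10, 11, 14 and 16. It was the more captured one in all 6 on chromosomes 6, 15, 17, 18, 20 and X. Only chromosomes 2 and 4 were mixed. Neither contrast differed between strains beyond the spread of libraries (exact permutation of 3 against 3, p = 1 for both, smallest possible p 0.1).

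Fragment length moved with this contrast. The lower-coordinate fragments were shorter, with a median of 2025 bp against 2979 bp on chromosome 12 and of 2224 bp against 2567 bp on chromosome 19. With capture expected from fragment length, the fold was 0.727 on chromosome 12 and 0.829 on chromosome 19, negative on the log2 scale in all 6 libraries. Other properties that move with fragment length, such as how many reads can be placed uniquely, were not tested.

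**Figure D2:**
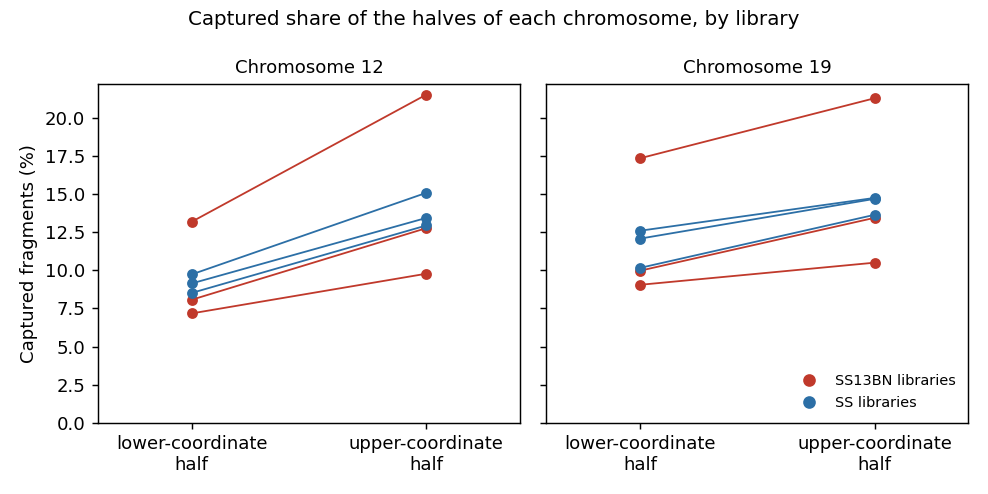
Captured fragments in percent (y axis) of the lower-coordinate and the upper-coordinate part of chromosomes 12 and 19 (x axis), 1 line per library, SS13BN in red and SS in blue. Every line ascends to the right on both chromosomes, with folds of the lower over the upper part of 0.659 on chromosome 12 and 0.805 on chromosome 19.

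Along chromosome 12, relative capture formed 1 high domain and several troughs. In steps of 5 Mb it was 0.842 ± 0.0385, 0.602 ± 0.0289, 1.11 ± 0.0911, 1.08 ± 0.0703, 0.536 ± 0.0624, 0.780 ± 0.0565, 0.954 ± 0.0481 and 0.995 ± 0.0585 up to 40 Mb (SD, n = 6). Beyond 40 Mb it was 1.54 ± 0.154, 1.66 ± 0.162 and 1.57 ± 0.212. The region from 40 Mb to the end, 2829 fragments bounded after the values were seen and so given without a test, had a relative capture of 1.59 ± 0.165 (1.33 to 1.76 in single libraries), against 0.839 ± 0.0289 for the first 40 Mb. With capture expected from fragment length these were 1.46 and 0.840. The last 3 Mb stood at 1.69 ± 0.238 and the first 3 Mb at 0.722 ± 0.0821, where the median fragment was 434 bp and the length-adjusted value was 0.934.

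Chromosome 19 was flatter, with separate peaks rather than 1 domain. Its first 50 Mb had a relative capture of 1.04 ± 0.0156 and the remainder 1.36 ± 0.0917 (bounds again chosen after the values were seen). In the upper region the 5 Mb steps from 50 Mb on were 1.48 ± 0.159, 1.01 ± 0.0726, 1.46 ± 0.125 and 1.71 ± 0.186, and the piece from 70 Mb to the end had 1.22 ± 0.118. The lowest step with more than 1 fragment lay at 35 to 40 Mb, with 0.879 ± 0.0444. The ends of chromosome 19 did not repeat the pattern of chromosome 12, with 1.05 ± 0.0881 in the first 3 Mb and 1.22 ± 0.123 in the last 3 Mb.

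**Figure D3:**
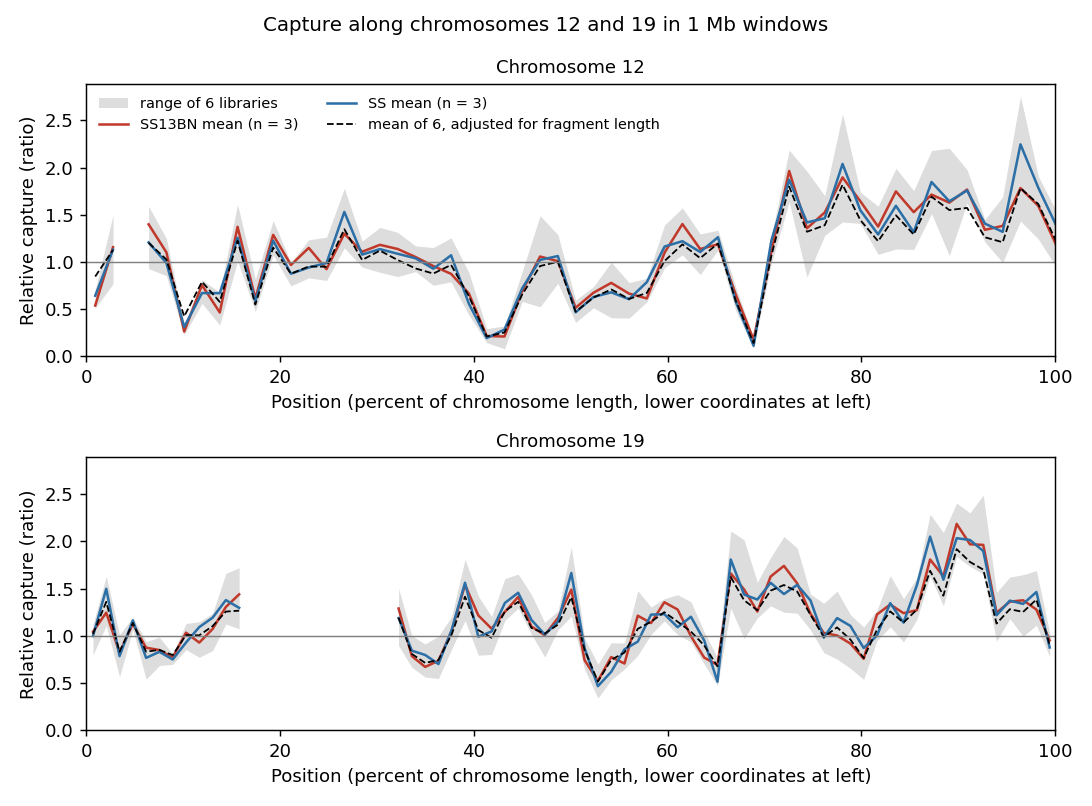
Relative capture (y axis) in 1 Mb windows along chromosomes 12 and 19 (x axis, percent of chromosome length): means of the 3 SS13BN libraries in red and the 3 SS libraries in blue, the range of 6 libraries in grey, and the length-adjusted mean dashed; lines break at the 2.34 Mb and 11.3 Mb fragments. Both strain means follow the same troughs and peaks, and the region of chromosome 12 beyond 40 Mb lies above 1.

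At 500 kb, contact windows were few on both chromosomes and lay mostly in these upper regions. A window was called a contact window of a strain when, in all 3 libraries of that strain, captures exceeded the number expected from the library-wide share (exact one-sided binomial test, Benjamini-Hochberg adjusted p under 0.05 over the windows of a library). On chromosome 12, 3 of 106 windows were called in SS13BN and 1 in SS, and on chromosome 19, 3 of 125 in SS13BN and 5 in SS, where 1.58% of all 5332 windows were called in SS13BN and 1.86% in SS. Windows called in all 6 libraries numbered 1 on chromosome 12 and 2 on chromosome 19, against 0.713% of all windows. The binomial test takes the fragments of a window as independent, and whether neighbouring fragments are so was not tested. These counts are small and are given as a description. On chromosome 12 they also rest on single libraries. Without SS13BN 3, in which 4 windows of the chromosome passed against 14 in SS13BN 1 and 16 in SS13BN 2, the SS13BN count became 13. The SS count became 2 without SS 1, 2 without SS 2 and 4 without SS 3, and the count in both strains became 2 without SS 2. On chromosome 19 the SS count became 8 without SS 3.

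The chromosome 12 window called in all libraries ran from 49000001 to 49500000. Of its 81 fragments, 18, 31 and 18 were captured in SS13BN and 21, 18 and 21 in SS. Its relative capture of 2.25 ± 0.15 (SD, n = 6) varied little between libraries and ranked 52 among all windows with at least 50 fragments. The window of highest mean on the chromosome, from 42500001, varied more: of 109 fragments, 27, 45 and 16 were captured in SS13BN and 35, 36 and 22 in SS, a relative capture of 2.36 ± 0.613 that passed in 4 libraries. The window from 52500001 had 19, 36 and 11 of 92 fragments captured in SS13BN and 34, 27 and 16 in SS (2.18 ± 0.697, also 4 libraries). In both of these windows the least captured libraries relative to their totals were SS13BN 3 and SS 3. The other SS13BN contact windows of chromosome 12 began at 39500001 and 43000001.

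The strongest contacts of chromosome 19 lay within 2.5 Mb of each other. The window from 66000001 to 66500000 had 24, 30 and 18 of 78 fragments captured in SS13BN and 25, 22 and 20 in SS, a relative capture of 2.59 ± 0.361 that ranked 18 among all windows. The window from 67500001 had 25, 30 and 18 of 90 fragments captured in SS13BN and 27, 21 and 21 in SS (2.29 ± 0.326, rank 43). Both passed in all 6 libraries. With chromosome 19's own captured share as the expectation, neither did: the count in both strains became 0 and that in SS became 1. Between them in level, the window from 65500001 had 22, 32 and 21 of 83 fragments captured in SS13BN and 25, 25 and 17 in SS (2.49 ± 0.476) and passed in 5 libraries. SS alone also met the rule at 48500001, 49000001 and 63000001, but whether the strains differ there is a separate test, and none of these windows passed it.

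Fragments in these windows were long, with medians of 4154 bp at 49000001 on chromosome 12 and of 4152.5 and 4704 bp at 66000001 and 67500001 on chromosome 19. When the expected share was set by fragment length, none of the 3 windows remained called in all 6 libraries: the first 2 passed in 5, missing SS 3 (adjusted binomial p = 0.0536 and 0.0947), and the window from 67500001 passed in 4, missing SS13BN 3 (0.112) and SS 3 (0.160). Their length-adjusted capture was 2.05 ± 0.119, 2.26 ± 0.331 and 2.00 ± 0.300.

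Chromosome 12 held several troughs. Depleted windows, called by the same rule in the lower tail, numbered 6 in SS13BN and 7 in SS on chromosome 12, and 0 in SS13BN and 1 in SS on chromosome 19, where 2.23% of all windows were called in SS13BN and 2.68% in SS. In all 6 libraries, 6 windows of chromosome 12 and 0 of chromosome 19 were called, against 1.89% of all windows. The SS window of chromosome 19 began at 38500001. Its count became 3 without SS 2, and without SS13BN 3 the SS13BN count and the count in both strains became 1. Windows that passed in at least 1 library are described by side of 40 and 50 Mb, cuts chosen after the values were seen. Of the 29 windows of chromosome 12 from 40 Mb on, 0 passed in the lower tail and 17 in the upper tail. Of the 77 windows below 40 Mb, 18 passed in the lower tail and 3 in the upper tail. On chromosome 19, 1 of 46 windows from 50 Mb on and 10 of 79 windows below it passed in the lower tail. In the upper tail 21 and 10 passed. Of all 5332 windows, single libraries had 178 (SS13BN 3) to 554 (SS13BN 2) passing in the lower tail. In the upper tail the same libraries had 174 and 645. The share of all windows that passed in at least 1 library was not counted, so the counts by side cannot be set against the genome. As the cuts were drawn from the same captures, the contrast between sides is partly built in.

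The deepest trough, from 37000001 to 37500000 on chromosome 12, had 140 fragments and exactly 1 captured fragment in each of the 6 libraries, a relative capture of 0.0640 ± 0.0142. Only 1 fragment was captured in more than 1 library, since the 6 captures fell on 5 fragments. The adjoining window from 36500001 had 3, 2 and 0 of 103 fragments captured in SS13BN and 1, 3 and 2 in SS (0.156 ± 0.118). This trough lies just below the high domain that begins near 40 Mb. In the trough at 20 to 25 Mb, the window from 23500001 had 0, 2 and 2 of 127 fragments captured in SS13BN and 4, 3 and 1 in SS (0.138 ± 0.102). The windows from 22000001 and, in SS, from 22500001 were depleted as well. Median fragments in the called windows of these troughs were 1818 to 2204 bp, below the 2505 bp of all chromosome 12 fragments. The windows from 36500001 and from 37500001 (0.273 ± 0.127), called in neither strain, had medians above it, of 3273 and 2597 bp. The windows from 22000001, 23500001 and 37000001 were called in all 6 libraries with expected shares by length too. Whether fragment length bears on these troughs in other ways was not tested.

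The lowest windows of chromosome 19 were shallower. From 38500001, 6, 15 and 9 of 181 fragments were captured in SS13BN and 8, 7 and 7 in SS (0.408 ± 0.0951). From 47000001, 9, 13 and 9 of 195 were captured in SS13BN and 9, 11 and 6 in SS (0.429 ± 0.113). From 25500001, 6, 13 and 2 of 108 were captured in SS13BN and 5, 5 and 8 in SS (0.487 ± 0.176). All 3 windows held at least 2 captured fragments in every library, whereas each of the 3 lowest windows of chromosome 12 held 1 or 0 in at least 1 library.

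**Figure D4:**
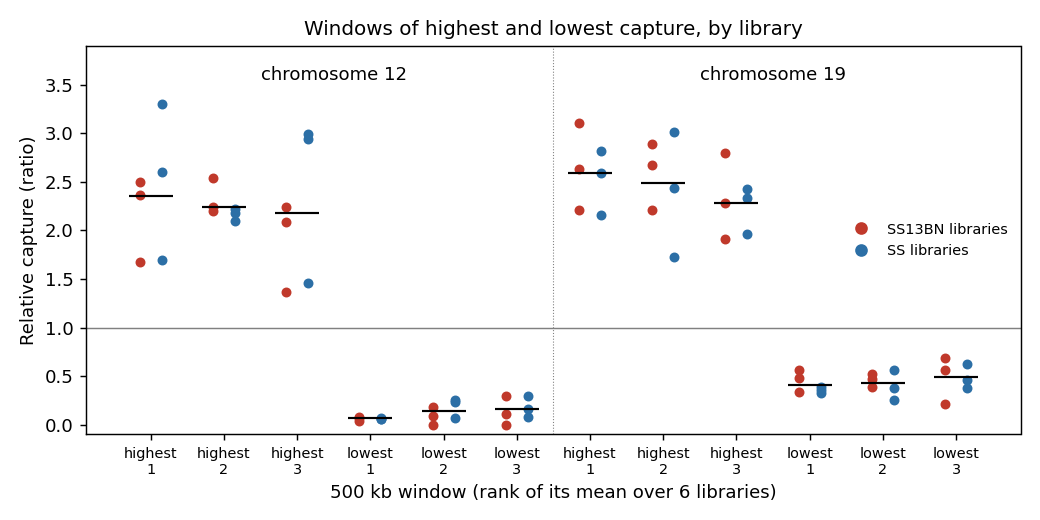
Relative capture (y axis) of the 3 highest and the 3 lowest 500 kb windows of chromosomes 12 and 19 (x axis, ranked by the mean of 6 libraries, black bars), 1 point per library with SS13BN in red left of SS in blue. The lowest windows of chromosome 12 sit between 0.0640 and 0.156 on average and those of chromosome 19 between 0.408 and 0.487, and the strains overlap in every window.

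Across windows with at least 50 fragments, most of chromosome 19 lay above the genome's median. Relative capture was above 1 in all 6 libraries in 44 of 124 windows (35.5%) on chromosome 19 and in 28 of 104 (26.9%) on chromosome 12, against 23.0% of all 5301 windows. It was below 1 in all 6 libraries in 16 windows (12.9%) on chromosome 19 and in 25 (24.0%) on chromosome 12, against 24.7% of all windows. The median window was at 1.15 on chromosome 19, 1.07 on chromosome 12 and 0.998 over all windows. These shares are descriptions, since neighbouring windows and the 6 libraries share their fragments.

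The remaining 3 depleted windows of chromosome 12 were places of very short fragments. Those of 92 or 93 bp, the most frequent length on the chromosome with its next longer neighbour, numbered 265 on chromosome 12, or 2.12% of its fragments. They numbered 25 on chromosome 19 and made up 0.551% of the fragments of the other chromosomes. On chromosome 12, 263 of them lay in the lower-coordinate part. Of the 265, 0 were captured in any library, which allows a share of up to 1.13% (3 counts of the total) if fragments are independent. As these fragments lie in clusters, that limit is too narrow by an unknown amount. On chromosome 19, 3 of 25 were captured in at least 1 library, and on the other chromosomes 3.10% were. Cut sites at a fixed spacing are what a tandemly repeated sequence gives. The sequence of these fragments was not read here.

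The short fragments lay in 3 clusters that coincide with the longest runs of fragments never captured. On chromosome 12 a run of 232 fragments from 5455220 to 5503050 (47.8 kb), a run of 208 from 320744 and a run of 121 from 5690982 were captured in none of the 6 libraries, and each had a median fragment of 93 bp. The depleted windows that start at 1, 5000001 and 5500001 held 119, 76 and 63 fragments of 92 or 93 bp among 361, 386 and 263. When only fragments of 100 bp and over were counted, relative capture was 0.717 ± 0.152 in the window at the chromosome start, 0.305 ± 0.0648 from 5000001 and 0.561 ± 0.0827 from 5500001, each relative to all fragments of that length and each below 1 in 6 of 6 libraries. With expected shares by length, the windows at 1 and 5500001 were called in 1 library each and the window at 5000001 in all 6, so that 4 of the 6 windows of chromosome 12 depleted in both strains remained called. On chromosome 19 the longest run without capture was 90 fragments from 37582199 to 37826650 (244 kb), with a median of 1305 bp and none of 92 or 93 bp. Counted in fragments, it was the shortest such maximum among the 20 chromosomes, where that of chromosome 12 ranked 8 from the longest. In kb the order of these 2 runs was reversed, at 47.8 kb on chromosome 12 and 244 kb on chromosome 19. Longest runs with a median of 93 bp also occurred on other chromosomes, among them 1, 7 and 17. That of chromosome 1 held 1773 fragments, 1006 of them of 92 or 93 bp.

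With all fragments under 100 bp left out of every chromosome, an alternative added after these runs were seen, the main contrasts kept their sign. The lower-coordinate over upper-coordinate fold of chromosome 12 was 0.706 (log2 -0.50), and that of chromosome 19 was 0.806 (log2 -0.31). Capture of chromosome 19 against the other chromosomes was 1.13-fold, and the difference of chromosome 12 minus chromosome 19 was -0.13 on the log2 scale, each with the same sign in 6 of 6 libraries.

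Capture depended on fragment length on both chromosomes as elsewhere, with departures at the extremes. Fragments of 6.4 to 12.8 kb were captured most often, at 15.3% ± 3.548 on chromosome 12, 18.7% ± 4.34 on chromosome 19 and 17.3% ± 4.15 on the other chromosomes (SD, n = 6). Below 100 bp the shares were 2.64% ± 0.284, 5.42% ± 0.696 and 3.69% ± 0.561. Between 12.8 and 25.6 kb they were 10.7% ± 2.43 on chromosome 12, 14.7% ± 2.59 on chromosome 19 and 15.1% ± 3.32 elsewhere. On chromosome 12 the share was above that of the other chromosomes in the classes from 200 bp to 3.2 kb and below it in all others. Over windows, capture and median fragment length had a Spearman rho of 0.561 on chromosome 12 (104 windows), 0.608 on chromosome 19 (124 windows) and 0.530 elsewhere (5073 windows). After adjustment by length class these were 0.486, 0.496 and 0.439, so length classes removed only part of the relation.

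**Figure D5:**
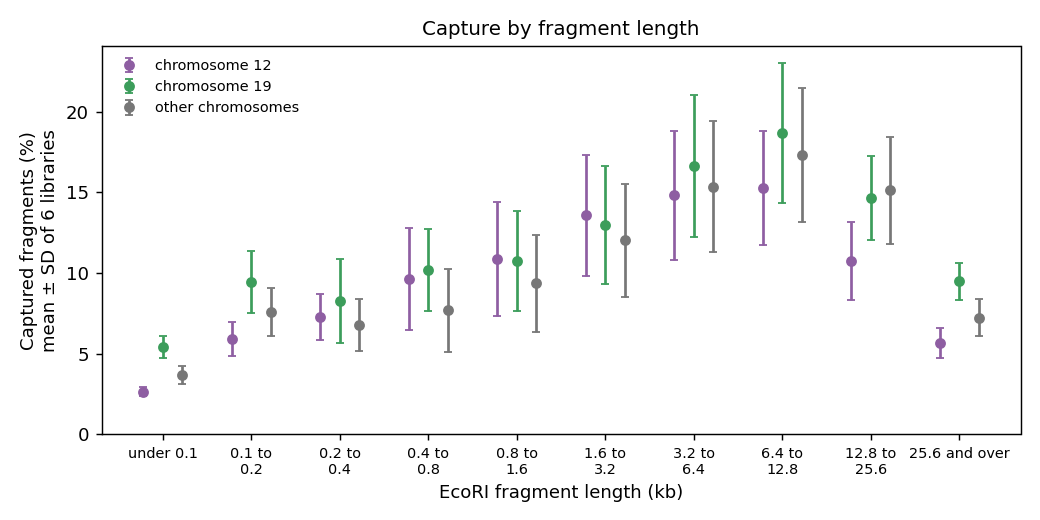
Captured fragments in percent (y axis, mean ± SD of 6 libraries) by EcoRI fragment length in kb (x axis) on chromosome 12, chromosome 19 and the other chromosomes. All 3 are highest in the class of 6.4 to 12.8 kb, and chromosome 12 then drops to 10.7% in the next class.

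No window of either chromosome passed the test of a strain difference. Among 105 windows tested on chromosome 12 and 124 on chromosome 19, 0 passed an adjusted p of 0.05 (limma with intensity trend, Benjamini-Hochberg over all 5296 windows, of which 0.0% were called; smallest adjusted p 0.9988). At an unadjusted p of 0.05 there were 2 on chromosome 12 and 5 on chromosome 19, against 160 of all windows (3.02%). The median 95% half-width of a window's log2 difference was 0.57 on chromosome 12 and 0.50 on chromosome 19. These are unadjusted intervals of single windows, and a call after adjustment over all windows needed a larger difference, since differences beyond these sizes stand uncalled below.

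The 3 windows of smallest p are given as values. At 7500001 on chromosome 12, 5, 18 and 4 of 146 fragments were captured in SS13BN and 17, 13 and 15 in SS. Scaled to equal library totals these were 5.91, 12.1 and 5.35 in SS13BN and 16.1, 15.3 and 14.8 in SS, a log2 difference of -0.98 (SE 0.32, limma adjusted p = 0.9988). At 52000001 on chromosome 19, 34, 34 and 27 of 148 were captured in SS13BN and 21, 19 and 23 in SS, or 40.2, 22.9 and 36.1 scaled in SS13BN and 19.9, 22.3 and 22.7 scaled in SS (log2 difference 0.55, SE 0.21, limma adjusted p = 0.9988). At 47500001 on chromosome 19, 22, 30 and 16 of 212 were captured in SS13BN and 15, 13 and 17 in SS (log2 difference 0.51, SE 0.23, limma adjusted p = 0.9988). The scaled values of the strains did not overlap in any of the 3. Such separation was found in 6 windows of chromosome 12 (5.71%) and 11 of chromosome 19 (8.87%), against 7.8% of all windows tested, and so was no more frequent than over the genome on chromosome 12 and close to it on chromosome 19.

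The share of all fragments that was captured in every library was similar on both chromosomes. It is not a rate of recapture among fragments captured at least once. On chromosome 12, 219 fragments (1.75%) were captured in 6 of 6 libraries and 65.8% in none. On chromosome 19, 289 (1.78%) were captured in all 6 and 60.0% in none. On the other chromosomes, 1.47% were captured in all 6 and 63.0% in none. These fragments were mostly isolated, in 202 separate runs on chromosome 12 and 260 on chromosome 19. The longest run was 3 neighbouring fragments on each. On chromosome 12 it spanned 8808801 to 8811692, with fragments of 704, 326 and 1862 bp, next to a fragment captured in 5 libraries. On chromosome 19 it spanned 3239542 to 3244603, with fragments of 130, 83 and 4849 bp, and both neighbours were captured in 0 libraries. The next longest runs were pairs, 15 on chromosome 12 and 27 on chromosome 19. Over windows, libraries correlated with each other at a Spearman rho of 0.742 to 0.857 on chromosome 12 and 0.581 to 0.774 on chromosome 19, against 0.664 to 0.773 elsewhere, a description of windows that share fragments.

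In the deposited scores each fragment carries the standardized count of captured fragments among the 501 around it. The captured states were recovered from these scores, so their extremes are a description and no separate support for the regions above. On chromosome 12 the highest scores of SS13BN were 7.42 at 47876776, 9.19 at 53203051 and 5.69 at 39472848, and those of SS were 7.82 at 53315792, 8.11 at 47480781 and 6.69 at 48145531. They spread from 39.5 to 53.3 Mb, over the high domain and its lower edge. On chromosome 19 the highest scores of SS13BN were 8.51 at 66784693, 8.83 at 65026365 and 6.61 at 64817493, and those of SS were 7.59 at 66672881, 8.46 at 64667672 and 5.62 at 63747887. All 6 maxima of chromosome 19 fell between 63.7 and 66.8 Mb.

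The lowest scores differed in kind between the chromosomes. On chromosome 12 they lay at the short-fragment cluster near 5.5 Mb in SS13BN 2 (-8.62 at 5499619), SS13BN 3 (-5.53 at 5499619) and SS 3 (-6.44 at 5561687), where 139 of the 501 fragments of the window were 92 or 93 bp long. In SS 1 and SS 2 they lay in the trough at 22 Mb (-7.08 at 22747781 and -6.03 at 22571018), where 0 and 1 fragments were of that length. SS13BN 1 had its minimum at the chromosome start, -6.32 at 0, where the window holds only 251 fragments. The deposited score sets the count in such an incomplete window against the mean of a full one, and so is low at both ends of every chromosome by construction. With full windows only, its minimum was -6.18 at 5500267. On chromosome 19 the minima with full windows were -5.79 at 38303126, -5.99 at 38303126 and -4.36 at 25363806 in SS13BN, and -5.40 at 39056420, -5.06 at 38303126 and -5.66 at 38326759 in SS. Without that restriction the minimum of SS13BN 2 (-6.21 at 0), SS 1 (-5.53 at 72801424) and SS 2 (-5.33 at 0) lay at a chromosome end.

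The sign of the score was shared by all 6 libraries more widely on chromosome 12 than on chromosome 19. Other chromosomes were not counted, and the chromosome ends, where the score is low by construction, were included. On chromosome 12 it was above 0 in all 6 for 32.9% of fragments, below 0 in all 6 for 41.0% and mixed for 26.1%. On chromosome 19 it was above 0 in all 6 for 26.8%, below 0 for 33.2% and mixed for 40.02%. Since each score is relative to its own chromosome, these shares say how the profile repeats between libraries and not which chromosome is contacted more.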

How the data were processed

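The authors deposited 1 table per library, with a score for every EcoRI fragment of rn5. CASAVA 1.8 and the build rn5 are named in the submitters' processing notes, without their role. For the aligner and the scoring program: not given in the sources used here. Tested on the tables, the deposited score equals (k - Wp) / sqrt(Wp(1 - p)), with W fixed at 501, k the captures among the 501 consecutive fragments centred on the row (at chromosome ends k covers fewer while W stays the same) and p the captured share of the chromosome. Captured states recovered from it rebuilt 100% of the windows in every library. They hold no read counts, so sequencing depth is unknown and the number of captured fragments sets the precision. Coordinates are those of the files.

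From these states shares, 500 kb windows and length classes were computed (scipy 1.17.1 and numpy 2.4.6 under Python 3.11.15). Strains were compared with limma 3.58.1 (R 4.3.3) on log2(captured fragments scaled to the mean library total + 1), for windows with a mean of at least 1, and single values by exact permutation tests over libraries. A 3 against 3 permutation cannot go below p = 0.1. Scripts were tested on simulated data. Windows named are the 3 highest and 3 lowest of each chromosome, those called in both strains and the 3 of smallest strain p. Windows and runs mentioned beyond these were chosen after their values were seen. The members, tests and lists were chosen with earlier results of these data known. Chromosome 13 was not used here. No annotation or sequence of rn5 was used, so windows carry no gene names.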

Additional observations from a re-analysis of the deposited data

How the results depend on the processing

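The number of captured fragments limits all window results, and read depth was not known. Against the other chromosomes, chromosome 12 changed sign with expected capture by fragment length (-0.0133), per Mb (-0.25), per Mb without fragments of 100 kb and over (-0.25, chosen after seeing the data) and without chromosome X (-0.00989). Chromosome 19 changed sign per Mb (-0.12). Leaving out each library in turn gave -0.00453 to 0.0320 for chromosome 12, 0.18 to 0.20 for chromosome 19, -0.18 to -0.16 for their difference, and -0.63 to -0.58 and -0.33 to -0.29 for the lower against the upper part of chromosomes 12 and 19. With 5 libraries the smallest p is 0.0625, so none could pass. The strain difference of the totals ran from -0.0492 to 0.0394 on chromosome 12 and from -0.0368 to 0.0230 on chromosome 19. Contact windows without 1 library numbered 3 to 13 (SS13BN), 2 to 4 (SS) and 1 to 2 (both) on chromosome 12, and 4 to 4, 6 to 8 and 2 to 3 on chromosome 19. Depleted windows numbered 6 to 8, 7 to 9 and 6 to 6 on chromosome 12, and 0 to 1, 1 to 3 and 0 to 1 on chromosome 19. The next counts are for SS13BN, SS and both, in that order. At an adjusted p under 0.01, contact windows were 1, 0 and 0 on chromosome 12 and 1, 1 and 0 on chromosome 19. Depleted windows were 4, 3 and 2 on chromosome 12 and 0, 0 and 0 on chromosome 19. With expected shares by length, contact windows were 2, 0 and 0 on chromosome 12 and 2, 1 and 0 on chromosome 19. Depleted windows were then 4, 7 and 4 on chromosome 12 and 0, 0 and 0 on chromosome 19. With each chromosome's own share, contact windows were 3, 1 and 1 on chromosome 12 and 2, 1 and 0 on chromosome 19. The depleted ones were 6, 7 and 6 on chromosome 12 and 0, 1 and 0 on chromosome 19. In 1 Mb windows, contact windows were 3, 5 and 2 on chromosome 12 and 4, 5 and 3 on chromosome 19. Those depleted were 6, 5 and 4 on chromosome 12 and 0, 2 and 0 on chromosome 19. The cause of these moves was not tested, except that fewer libraries or a stricter threshold act by construction. Strain calls stayed at 0 in limma under every window size, pseudocount, filter and left-out library tried and with mean deposited scores. Libraries of the same number deviated together weakly (correlations of 0.0875, 0.130 and 0.0834, against -0.0932 to -0.00753 for other pairs). Mean Spearman rho over windows was 0.724 for the same number across strains and 0.684 within a strain on chromosome 19. These were 0.787 and 0.780 on chromosome 12, and 0.748 and 0.713 elsewhere. The labels do not say whether the number marks a pairing, and the main fit did not use it as one. With the replicate block, adjusted calls stayed at 0 on both chromosomes, and calls at an unadjusted p of 0.05 were 3 on chromosome 12, 8 on chromosome 19 and 203 over all windows.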
